A study of Homo sapiens with 4 samples.

Results

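A set of 10 genes used to describe the epithelial or mesenchymal state of a cell was examined in RNA-seq of untreated and doxorubicin-treated cells labelled HepG2. The set held the transcription factors SNAI1, SNAI2, ZEB1, ZEB2 and TWIST1. VIM, CDH2 and FN1 were taken as mesenchymal genes, and CDH1 and EPCAM as epithelial genes. These are general labels, and whether they hold for cells of liver origin was not tested. The genes were chosen by name, and all 10 were found among the 59050 genes of the deposited count files. The filter on low counts kept 17479 genes for testing, and 8 of the 10 were among them. CDH1 and EPCAM were removed by it, so no fold change was fitted for them. HepG2 is a human cell line established from a hepatocellular carcinoma. There were 2 libraries of untreated cells (0 h) and 2 libraries of cells given doxorubicin, a DNA-damaging drug that induces p53, at 1 µg/ml for 24 h. All 4 libraries came from the same line in the same serum-containing medium, and polyadenylated RNA was sequenced. The series describes the replicates as biological, but no source used here says whether they were separate cultures, so p-values measure the spread between these samples. No untreated library at 24 h was among them, so the drug and the time in culture cannot be told apart.

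In the epithelial-mesenchymal transition (EMT), cells lose the junctions that hold an epithelial sheet together and gain the ability to move. E-cadherin (CDH1) joins neighbouring epithelial cells, and its gene is repressed by SNAI1, SNAI2, ZEB1 and ZEB2, which bind E-box sequences at its promoter. Cells that pass through EMT commonly express N-cadherin (CDH2), the intermediate filament protein vimentin (VIM) and the matrix protein fibronectin (FN1) in place of E-cadherin. In liver, hepatocytes and well-differentiated hepatocellular carcinoma cells are epithelial, and HepG2 is known as a line that expresses E-cadherin and EPCAM.

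The libraries held between 27572740 and 36272180 counts. Values are given as CPM, which are counts scaled to a library total of 1000000, and a count of 3 corresponded to a CPM between 0.0827 and 0.109. Untreated replicate 2 stood apart from the other 3 libraries. Across the tested genes, the Pearson correlation of its log2 CPM with the other libraries was between 0.883 and 0.887, while the other 3 libraries had correlations between 0.975 and 0.988 with each other (across genes, which are not independent replicates). It was the highest of the 4 libraries in 36.6% of tested genes and the lowest in 45%. The main results below are therefore given for every library and without untreated replicate 2. The markers of liver went against the label. Of 18 liver genes, 10 had a CPM under 1 in all 4 libraries, among them ALB (albumin), TTR and SERPINA1, and only FOXA1 had a CPM of at least 1 in every library. ALB had 0, 1, 2 and 3 counts in untreated replicates 1 and 2 and doxorubicin replicates 1 and 2. The cells are therefore called by their label only as "labelled HepG2". The treatment was checked by p53 targets. CDKN1A, which encodes the cell cycle inhibitor p21, counted 380.1 and 865.6 CPM without the drug and 1003 and 880.3 CPM with it. Its log2 fold change was 0.44 (SE 0.44, Benjamini-Hochberg adjusted p = 0.8005 by the quasi-likelihood test of edgeR) with all libraries and 1.17 (adjusted p = 3.8e-05) without untreated replicate 2. MDM2, whose product marks p53 for degradation, counted 43.0 and 32.1 CPM against 54.8 and 56.6. Its log2 fold change was 0.41 (SE 0.35, adjusted p = 0.781, edgeR) with all libraries and 0.23 (SE 0.24) without untreated replicate 2. Neither target passed the test with all libraries, so this check did not establish that p53 was induced.

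The promoter sequences of FN1, ZEB2 and VIM are shown because these genes were higher in both doxorubicin libraries than in both untreated libraries and have a single start in the RefSeq table. The sequences are the 250 bases before the transcription start on the gene's own strand (RefSeq, GRCh38.p14). The FN1 promoter is at chr2:215436069-215436318 on the minus strand. The ZEB2 promoter, at chr2:144520120-144520369 on the minus strand, lies inside the longer ZEB2 gene of GENCODE release 44. The VIM promoter is at chr10:17227991-17228240 on the plus strand and ends where the annotated gene begins. Capitals mark the motif TGACGTCA, the cyclic AMP response element.
FN1: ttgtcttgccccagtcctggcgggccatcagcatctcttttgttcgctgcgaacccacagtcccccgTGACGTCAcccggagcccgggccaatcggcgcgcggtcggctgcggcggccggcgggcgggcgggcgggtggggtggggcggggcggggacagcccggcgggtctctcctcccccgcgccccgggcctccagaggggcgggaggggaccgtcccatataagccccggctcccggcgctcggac
ZEB2: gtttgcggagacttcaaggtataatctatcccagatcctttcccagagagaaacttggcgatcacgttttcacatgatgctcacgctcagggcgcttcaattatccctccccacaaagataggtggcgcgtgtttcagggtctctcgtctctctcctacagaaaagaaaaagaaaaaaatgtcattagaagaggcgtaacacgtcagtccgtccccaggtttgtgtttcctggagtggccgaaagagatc
VIM: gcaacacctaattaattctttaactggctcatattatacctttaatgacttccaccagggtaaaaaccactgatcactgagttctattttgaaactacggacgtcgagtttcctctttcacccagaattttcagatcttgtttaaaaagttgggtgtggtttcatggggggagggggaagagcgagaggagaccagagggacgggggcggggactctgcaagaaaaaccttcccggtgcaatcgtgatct
The element in the FN1 promoter began 183 bases before the start. It was found on either strand in 578 of 35116 promoters of this length (1.65%). The E-box CACCTG, which the SNAI and ZEB factors bind, was searched on both strands. It was found in 17.5% of promoters and in none of the 3 sequences above. Of the 7 RefSeq starts of ZEB1, 2 had this E-box in the 250 bases before them. The motif TGANTCA, bound by AP-1, was found in 6.57% of promoters, and among the members in 1 of the 2 CDH2 promoters, 102 bases before its start. A match describes the letters of the sequence and is not evidence of binding. CDH1, EPCAM, SNAI1, SNAI2 and TWIST1 were not analysed here for promoter motifs.

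All 4 libraries had the transcripts of the mesenchymal genes VIM and CDH2 and almost none of the epithelial genes CDH1 and EPCAM. The other mesenchymal gene, FN1, had 6.34 and 6.75 CPM without and 34.9 and 28.8 CPM with doxorubicin. By CPM divided by exon length, FN1 lay above 46.1% of protein-coding genes in both untreated libraries, and 59.4% and 55.7% with doxorubicin. VIM (chromosome 10, 17228241 to 17237593, plus strand, GRCh38) counted 751.8 CPM in untreated replicate 1 and 717.5 in replicate 2, and 1011 CPM in the first doxorubicin library and 833.2 in the second. Divided by the length of its exons, this placed VIM above between 99.0% and 99.5% of protein-coding genes. CDH2 (chromosome 18, 27932879 to 28177946, minus strand) counted 130.7 and 61.1 CPM without doxorubicin and 119.6 and 120.3 CPM with it. Untreated replicate 2 was the lowest library for CDH2, and the other 3 lay close together. CDH1 (chromosome 16, 68737292 to 68835537, plus strand) had 7, 21, 5 and 6 counts in the same order. Its CPM was 0.193 (exact 95% Poisson interval 0.0776 to 0.398), 0.727 (0.450 to 1.11), 0.146 (0.0473 to 0.340) and 0.218 (0.0799 to 0.474), where the intervals cover counting error only. The interval of untreated replicate 2 did not overlap those of untreated replicate 1 and doxorubicin replicate 1. EPCAM (chromosome 2, 47345158 to 47387601, plus strand), which encodes an adhesion protein of epithelial cells, had 0 and 7 counts in the untreated libraries and 0 and 2 in the doxorubicin libraries. The exact Poisson upper limit of a count of 0 was a CPM of 0.102 in untreated replicate 1 and 0.108 in doxorubicin replicate 1. The low CDH1 and EPCAM also went against what is known of HepG2. In bulk RNA, few cells with a transcript and little transcript in every cell cannot be told apart.

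**Figure D1:**
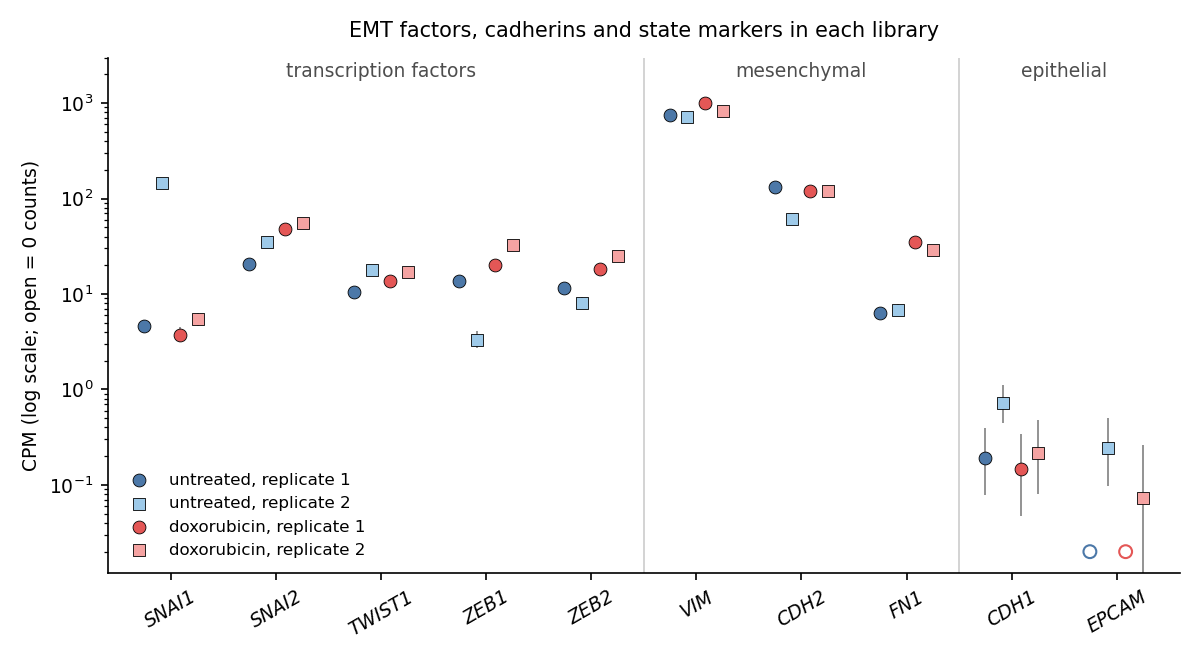
CPM of the 10 genes (log axis) in each of the 4 libraries, grouped as transcription factors, mesenchymal genes and epithelial genes. Vertical lines are exact 95% Poisson intervals, and open symbols at the foot mark 0 counts. CDH1 and EPCAM lie below a CPM of 1 in every library, SNAI1 of untreated replicate 2 lies at 145.7 far above the other 3 libraries, and FN1 of both doxorubicin libraries lies above both untreated libraries.

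Levels of different genes were compared as CPM per kb of exon, averaged over the 4 libraries. VIM had the highest level of the members at 384.5 (range 333.1 to 469.2), and its lowest library exceeded the highest library of every other member. CDH2 followed at 25.6 (14.5 to 31.01), SNAI1 at 23.4 (2.20 to 85.5), SNAI2 at 18.4 (9.50 to 25.6) and TWIST1 at 9.04 (6.44 to 10.9). The ranges of CDH2, SNAI1 and SNAI2 overlapped, and the order of these genes is not resolved by these libraries. The range of TWIST1 also overlapped those of the SNAI genes. Within each library SNAI2 was above TWIST1, while SNAI1 was above TWIST1 only in untreated replicate 2. The place of SNAI1 rested on untreated replicate 2, since the other 3 libraries had 2.70, 2.20 and 3.19, within the range of ZEB1. ZEB1 at 2.88 (0.552 to 5.36), FN1 at 2.14 (0.705 to 3.88) and ZEB2 at 1.19 (0.611 to 1.87) also overlapped. CDH1 at 0.0667 (0.0303 to 0.151) and EPCAM at 0.0410 (0 to 0.126) were the lowest, below every library of the other 8.

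The balance of E-cadherin and N-cadherin transcripts was read from CDH1 as a share of the CDH1 and CDH2 counts. Other cadherins were not part of this share. Among them, CDH3 had 8.05 and 5.58 CPM without and 6.64 and 8.70 CPM with doxorubicin (named after its values were seen). CDH1 made up 0.147% of them in untreated replicate 1 (exact 95% binomial interval 0.0593 to 0.303) and 1.18% in untreated replicate 2 (0.730 to 1.79). In the doxorubicin libraries the share was 0.122% (0.0395 to 0.284) and 0.181% (0.0663 to 0.393). N-cadherin transcript thus exceeded E-cadherin transcript in every library. The share of E-cadherin was highest in untreated replicate 2, whose interval did not overlap the other 3. Per kb of exon, CDH2 was 773.0, 95.9, 936.4 and 630.7 times CDH1 in the 4 libraries.

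Other cadherins and the proteins that bind them were described by a list of 22 genes, of which 17 were tested. CTNNA1 and CTNNB1, the catenins that link cadherins to actin, had CPM ranges of 428.1 to 501.0 and 251.6 to 400.7 over the 4 libraries (named after their values were seen). CDH4, CDH6, CDH11, CDH17 and CTNNA2 had a CPM under 1 in all libraries. The list had a median log2 fold change of -0.06, beside 0.01 for all tested genes. None was called with all libraries. Without untreated replicate 2 the median was -0.22, with 13 of the 17 below 0, and 1 gene was called higher and 1 lower, where 4.42% and 0.566% of all genes were. The unadjusted p with all libraries was under 0.05 for 1 gene with a higher and 2 with a lower level (2.66% and 1.73% of all genes). CDH16, the kidney cadherin, counted 0.551 and 0.277 CPM without and 4.46 and 2.79 CPM with doxorubicin. CDH5, the cadherin of endothelium, had 8.52 and 3.29 against 1.46 and 0.943. The doxorubicin libraries did not overlap the untreated ones for either gene. These were the genes called without untreated replicate 2, CDH16 at 2.59 (adjusted p = 4.6e-05) and CDH5 at -2.94 (adjusted p = 7.9e-13) on the log2 scale (edgeR). JUP, the plakoglobin of desmosomes and adherens junctions, had a CPM of 993.8 and 1179 against 758.2 and 766.8.

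Epithelial genes other than CDH1 and EPCAM did not share 1 level. Of 29 such genes, 18 had a CPM of at least 1 in all 4 libraries and 8 had a CPM under 1 in all 4. Among the 8 were ESRP1, an epithelial splicing factor, GRHL2, a factor that maintains CDH1, RAB25, OCLN and KRT19 (named after their values were seen). Among the 18 were ESRP2, DSG2, PKP3, ELF3 and MUC1 (also named after their values were seen). ESRP2, like ESRP1 an epithelial splicing factor, counted 79.6 and 77.5 CPM without and 52.3 and 49.4 CPM with doxorubicin. DSG2 had a CPM between 140.3 and 291.1. OVOL2, which represses ZEB1, had 0 counts in all 4 libraries. KRT8 and KRT18, keratins of simple epithelium, were abundant. KRT8 counted 4105 and 3968 CPM without and 2440 and 2088 CPM with doxorubicin. Its partner KRT18 had 1793, 782.8, 1086 and 937.0 in the same order. KRT8 was lower in both doxorubicin libraries than in both untreated libraries, while KRT18 overlapped, with untreated replicate 2 as its lowest library. The log2 fold change of KRT8 was -0.99 (SE 0.26, adjusted p = 0.773, edgeR quasi-likelihood test, Benjamini-Hochberg). Without untreated replicate 2 it was -0.996 (adjusted p = 0.000206, edgeR), just short of the threshold of 1 in size, and KRT18 had -0.96 (adjusted p = 0.000364, edgeR) in that fit. The desmosomal gene DSP had a CPM between 204.4 and 275.5 (named after its values were seen). Keratin and desmosomal genes and the mesenchymal VIM and CDH2 were thus counted in the same libraries.

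Over the 21 tested genes of the epithelial list, the median log2 fold change was -0.15, where all tested genes had 0.01. With an unadjusted p under 0.05, 2 were lower in doxorubicin, KRT8 and CGN, and 0 were higher. The shares over all genes were 1.73% and 2.66%. CGN, a protein of tight junctions, had a CPM of 4.74, 15.2, 1.69 and 3.34. Without untreated replicate 2 the median was -0.13, against 0.05 for all tested genes. In that comparison CLDN7 was called higher, at 3.94 and 2.91 CPM without and 9.65 and 7.98 CPM with the drug, and CGN was called lower, beside 4.42% and 0.566% of all genes (CLDN7 was named after its values were seen). The doxorubicin libraries were above both untreated ones for 5 and below both for 6 of the 21, where the shares over all genes were 30.3% and 11.5%.

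The markers of other cell types did not give a single identity. KRT17, a keratin of stratified epithelium, had a CPM of 928.6, 1223, 1587 and 1322, while 5 of the 8 genes of that list, including the basal cell factor TP63 (1, 11, 10 and 5 counts), had a CPM under 1 in all libraries. Of 10 fibroblast genes, 5 had a CPM of at least 1 in all libraries, and COL1A2, PDGFRA and POSTN had at most 3 counts in any. The summed CPM of the fibroblast list was 229.3 and 172.0 in the untreated and 290.5 and 291.4 in the doxorubicin libraries. The endothelial list summed to at most 10.4, and the leukocyte list to 21.3 in untreated replicate 2 and at most 2.36 in the other 3, where CD14 alone had a CPM of 16.7 in untreated replicate 2. The summed liver list was 19.6, 25.9, 33.0 and 36.0. Its genes with an unadjusted p under 0.05 were the fibrinogen chains FGA, FGB and FGG, and FGG counted 0.165 and 0.104 CPM without and 9.76 and 14.0 CPM with doxorubicin. KRT14 and KRT15 of the stratified list had at most 7.43 and 4.39 CPM, and KRT5 and KRT6A at most 0.381 and 0.450. Whether other cells contributed to the members' counts was not tested.

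**Figure D2:**
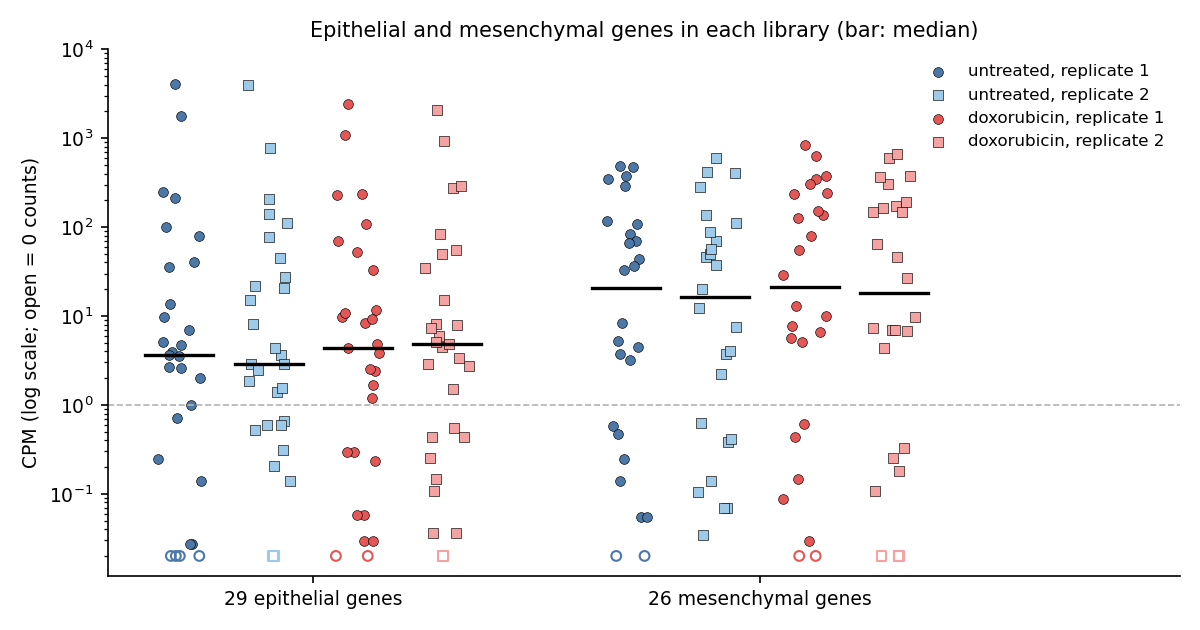
CPM (log axis) of 29 epithelial and 26 mesenchymal genes in each library, 1 point per gene, with bars at the median and open symbols at the foot for 0 counts. Both lists hold genes under a CPM of 1 and abundant genes in every library, and the highest epithelial point of every library is KRT8, at 2088 or more.

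The comparison of doxorubicin-treated with untreated cells asks which genes differ between cells given the drug for 24 h and untreated cells at 0 h. With all 4 libraries, the edgeR quasi-likelihood test called 0 of the 8 members and 0 of the 17479 genes (0%), where a call needed an adjusted p under 0.05 and a change by 1 or more on the log2 scale. Without adjustment, 768 genes (4.39%) had a p under 0.05, and among the members these were FN1 and SNAI1. Other tools called 64 genes (0.366%, likelihood ratio test), 38 (0.217%, exact test) and 89 (0.509%, DESeq2). By level alone, 5 of the 8 tested members were higher in both doxorubicin libraries than in both untreated libraries, and 0 were lower. The 5 were VIM, SNAI2, ZEB1, ZEB2 and FN1. The groups overlapped for CDH1 and EPCAM, which were not tested. Over all tested genes the shares were 30.3% and 11.5%. When untreated replicate 2 was left out, the test called 2 members, FN1 and SNAI2, both higher, against 4.98% of all genes called in either direction, 4.42% higher and 0.566% lower. When untreated replicate 1 was left out instead, 41% of all genes were called (21.4% higher and 19.6% lower), and FN1, ZEB1 and ZEB2 were called higher and SNAI1 lower. In each of these fits the lone untreated library was assumed to vary as the doxorubicin pair does.

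FN1 was the only member called against each untreated library alone. FN1 (chromosome 2, 215360440 to 215436073, minus strand) encodes fibronectin, a glycoprotein of the extracellular matrix. It had 230 and 195 counts in the untreated libraries and 1199 and 794 in the doxorubicin libraries. Its CPM was 6.34, 6.75, 34.9 and 28.8, which gave 6.55 ± 0.291 (SD, n = 2) in untreated and 31.9 ± 4.35 (SD, n = 2) in doxorubicin-treated cells, a ratio of 4.87. The untreated libraries lay close together and the lowest doxorubicin library was above both. Its log2 fold change was 2.13 (SE 0.42, unadjusted p = 0.00284, adjusted p = 0.773 from edgeR), which ranked 39 of 17479 by p. The adjusted p was 0.00845 with DESeq2 and 0.0366 with the likelihood ratio test of edgeR, and 0.0563 with its exact test, which did not call FN1. Against untreated replicate 1 alone it rose by 2.19 (SE 0.30, adjusted p = 1.2e-10, edgeR), and against untreated replicate 2 alone by 2.06 (adjusted p = 1.08e-10, edgeR). Of all tested genes, 1.88% were called higher against each untreated library alone. These fits share the doxorubicin libraries.

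Other genes of the mesenchymal list gave values beside those of FN1. Of 26 genes, 20 were tested. They had a median of 0.51 on the log2 scale with all libraries and 0.27 without untreated replicate 2, where all tested genes had 0.01 and 0.05. With all libraries 6 had an unadjusted p under 0.05 as higher, against 2.66% of all genes, and 1 as lower. DCN, LOX, LUM, TGFBI and TNC were among those higher (LOX, TGFBI and TNC were named after their values were seen). LOX, the enzyme that crosslinks collagen, had a CPM of 36.3, 37.0, 151.9 and 146.1. The proteoglycan DCN had 0.469, 0.623, 7.69 and 6.86, and LUM had 65.4, 49.3, 135.5 and 162.6. For each of these genes the doxorubicin libraries were above both untreated ones, as for 11 of the 20 tested and 30.3% of all genes. Without untreated replicate 2 the test called 6 of the list as higher and 0 as lower, against 4.42% and 0.566% of all genes. The abundant genes of the list did not move one way. The calcium-binding protein S100A4 counted 479.8 and 603.6 CPM without and 347.7 and 301.7 CPM with the drug (log2 fold change -0.89). The collagen COL5A1 had 485.6, 279.7, 839.0 and 599.6. The integrin ITGA5, a subunit of the fibronectin receptor, had 291.5, 410.1, 636.8 and 664.7, and FSTL1 had 378.1, 420.7, 308.9 and 366.4. Collagens COL1A1 and COL3A1 (named after their values were seen) had log2 fold changes of -0.02 and -0.60.

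VIM and CDH2 were the most abundant mesenchymal members and did not pass the test. The CPM of VIM was 735 ± 24.2 (SD, n = 2) in untreated and 922 ± 125 (SD, n = 2) in treated cells, with a log2 fold change of 0.18 (SE 0.28). CDH2 had 95.9 ± 49.2 and 119.9 ± 0.488 (SD, n = 2), with a log2 fold change of 0.16 (SE 0.44). The sign for CDH2 depended on the untreated library. It was -0.26 (SE 0.22) against untreated replicate 1 alone and 0.79 (SE 0.24, adjusted p = 0.00243, edgeR) against untreated replicate 2 alone.

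**Figure D3:**
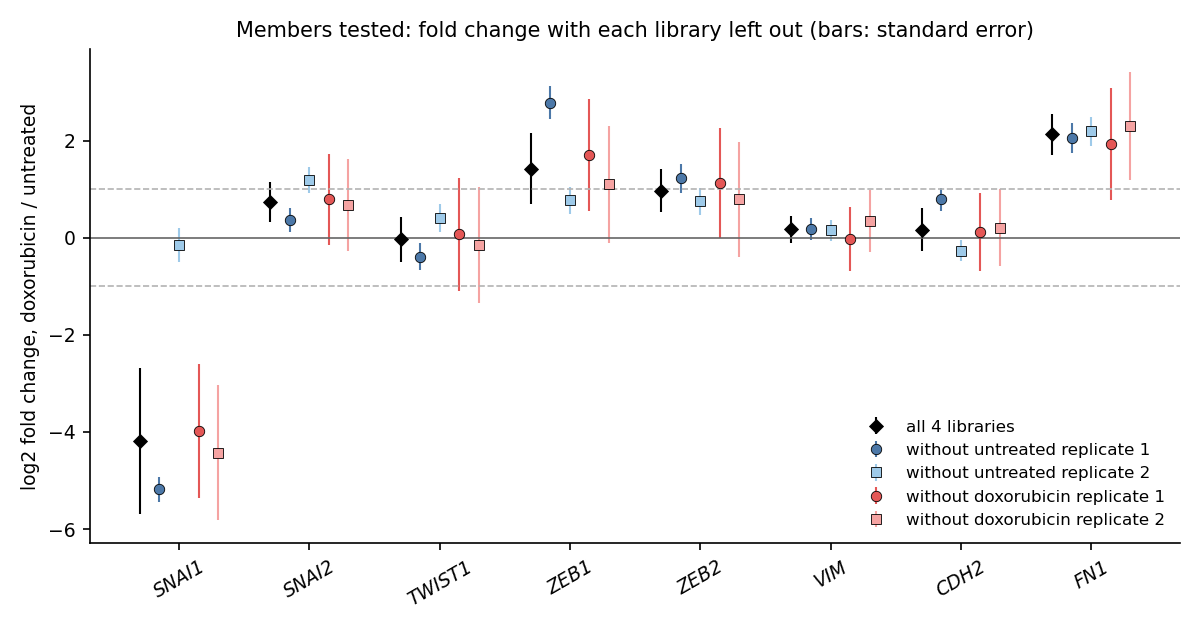
Log2 fold change of doxorubicin-treated over untreated cells for the 8 tested genes, with all 4 libraries and with each library left out in turn (bars are standard errors, dashed lines mark a fold change of 1 on the log2 scale in either direction). FN1 stays near 2 in every fit, SNAI1 moves from -4.19 to -0.15 without untreated replicate 2, and ZEB1 moves from 1.43 to 2.78 without untreated replicate 1.

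SNAI1 (chromosome 20, 49982980 to 49988886, plus strand) encodes Snail, a zinc finger repressor of CDH1 with a short-lived protein. Its counts were 167 and 4208 in the untreated libraries and 129 and 150 in the doxorubicin libraries. The CPM was 4.60, 145.7, 3.76 and 5.44, so untreated replicate 2 was the high library and the other 3 overlapped. Such a gap was uncommon, since 78 of 17479 genes (0.446%) were at least 16-fold higher in untreated replicate 2 than in the highest of the other libraries. The log2 fold change was -4.19 (SE 1.5, unadjusted p = 0.0341, adjusted p = 0.773 from edgeR), and DESeq2 gave an adjusted p of 0.0202. Without untreated replicate 2 the fold change was -0.15 (SE 0.34, adjusted p = 0.860, edgeR). The difference in SNAI1 therefore rested on 1 library.

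SNAI2 (chromosome 8, 48917598 to 48921740, minus strand), which encodes the related repressor Slug, had 751, 1020, 1661 and 1537 counts. The groups did not overlap, with 20.7 and 35.3 CPM without and 48.4 and 55.7 CPM with doxorubicin. The log2 fold change was 0.74 (SE 0.41, adjusted p = 0.773, edgeR). Against untreated replicate 1 alone SNAI2 rose by 1.19 (SE 0.26, adjusted p = 0.000383, edgeR), and against untreated replicate 2 alone the value was 0.37 (adjusted p = 0.188). Both SNAI genes were higher in untreated replicate 2 than in untreated replicate 1, but SNAI2 was highest in the doxorubicin libraries.

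ZEB1 and ZEB2 encode zinc finger homeobox factors that repress CDH1 and are themselves targets of the miR-200 family. ZEB1 (chromosome 10, 31318495 to 31529814, plus strand) had 502, 96, 686 and 891 counts and a CPM of 13.8, 3.32, 19.99 and 32.3. ZEB2 (chromosome 2, 144364364 to 144521057, minus strand) had 422, 234, 635 and 685 counts and a CPM of 11.6, 8.10, 18.5 and 24.8. In both genes the doxorubicin libraries were above the untreated ones and untreated replicate 2 was the lowest. The log2 fold changes were 1.43 (SE 0.72) for ZEB1 and 0.97 (SE 0.44) for ZEB2, each with an adjusted p of 0.773 (edgeR). Without untreated replicate 2 they were 0.77 (adjusted p = 0.0641) and 0.75 (adjusted p = 0.0826) by the edgeR test. Against untreated replicate 2 alone, the lowest library for both genes, ZEB1 rose by 2.78 and ZEB2 by 1.23.

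TWIST1 (chromosome 7, 19020991 to 19117636, minus strand) encodes a basic helix-loop-helix factor of mesoderm. The groups overlapped, with 10.5 and 17.7 CPM without and 13.8 and 17.0 CPM with the drug. Its log2 fold change was -0.03 (SE 0.46), with a sign that changed between fits.

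The makeup of the 5 factors was compared as CPM per kb of exon. SNAI2 was the largest component in untreated replicate 1 (43.5%) and in the doxorubicin libraries (59.1% and 55.1%), with TWIST1 next at 29.5%, 22.5% and 22.4%. In untreated replicate 2, SNAI1 made up 75.2% of the sum, against 12.4%, 5.87% and 6.88% in the other libraries. The sum itself was 21.8, 113.7, 37.6 and 46.4. ZEB1 contributed between 0.485% and 11.6% and ZEB2 between 0.538% and 4.04%, each lowest in untreated replicate 2. The share of CDH1 in the CDH1 and CDH2 counts was highest in untreated replicate 2, where the summed factors were highest and CDH2 was lowest. That library had a count for 31258 genes, against 25734 in untreated replicate 1 and 27609 and 27551 in the doxorubicin libraries. Whether the CDH1 share and the factors are linked was not tested.

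Antisense genes were read beside their partners because the sources used here do not say whether strand was used in counting. ZEB1-AS1, which starts beside ZEB1 on the other strand, had 118, 278, 146 and 150 counts. In untreated replicate 2 this was 289.6% of the ZEB1 count, and in the other 3 libraries it was between 16.8% and 23.5%. ZEB1 was thus lowest and ZEB1-AS1 highest in untreated replicate 2. VIM-AS1 had at most 102 counts in any library, and ZEB2-AS1 at most 11. ZEB2-AS1 shares 356 exon bases with ZEB2 (2.69% of its exon bases), so its reads cannot be told apart there. Exons of VIM, CDH1 and CDH2 overlap unnamed genes on the opposite strand by 342, 212 and 136 bases, and reads there are uncertain for the same reason.

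Further regulators of EMT were described by a list of 28 genes, and 25 of them were tested. The list included the factors TWIST2, FOXC2 and SOX9, the ID proteins, and corepressors and ligases that act with or on SNAI1. Their median log2 fold change was 0.08 and became -0.06 without untreated replicate 2, where all tested genes had 0.01 and 0.05. None was called with all libraries, beside 0% of all genes. YBX1, a Y-box protein known to promote translation of SNAI1, alone of the list had an unadjusted p under 0.05 (4.39% of all genes). It had a CPM of 1527, 2285, 1112 and 1130 (log2 fold change -0.92). Untreated replicate 2 was the highest library for 10 and the lowest for 14 of the 25, where the shares over all genes were 36.6% and 45%. SOX9 resembled SNAI1, with a CPM of 0.882, 79.6, 1.81 and 3.12 (named after its values were seen).

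Ligands, receptors and mediators of EMT signals formed a list of 20 genes, and 19 of them were tested. The median of their log2 fold changes was 0.48 with all libraries and 0.11 without untreated replicate 2, where all tested genes had 0.01 and 0.05. None was called with all libraries, beside 0% of all genes. Untreated replicate 2 was the lowest library for 16 of the 19, where the share over all genes was 45%. TGFBR1, the type I receptor of TGF-beta, had a CPM of 212.3, 42.1, 288.4 and 342.9, and the receptor MET had 339.7, 65.9, 357.2 and 408.9 (both named after their values were seen). The ligand TGFB3 alone had an unadjusted p under 0.05 (4.39% of all genes). It counted 3.14, 14.5, 2.19 and 1.81 CPM, which placed untreated replicate 2 highest. HGF, the ligand of MET, had 0 counts in all libraries.

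The difference between the untreated replicates varied with the length of a gene on the genome, called its span. Tested genes with a span in GENCODE release 44 were divided by span into 5 equal bins. The median log2 difference of untreated replicate 2 minus replicate 1 was 0.51 in the bin of the shortest genes, 0.32, 0.00 and -0.44 in the next 3, and -1.05 in the longest. The same medians for the doxorubicin replicates lay between -0.14 and 0.08. Among the members, CDH2 (245068 bases) differed by -1.10 and ZEB1 (211320 bases) by -2.05, while ZEB2 (156694 bases) differed by -0.53. SNAI2 (4143 bases) differed by 0.76 and SNAI1 (5907 bases) by 4.96. TWIST1 differed by 0.74. Its span of 96646 bases in release 44 placed it in the bin of the longest genes, although its exons covered 1630 bases. Its span in release 31, which the file headers name, was not compared, so its bin is uncertain. FN1 (75634 bases) and VIM (9353 bases) differed by 0.08 and -0.07, the smallest differences of the 8. The part of span in the differences of the members was not tested.

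**Figure D4:**
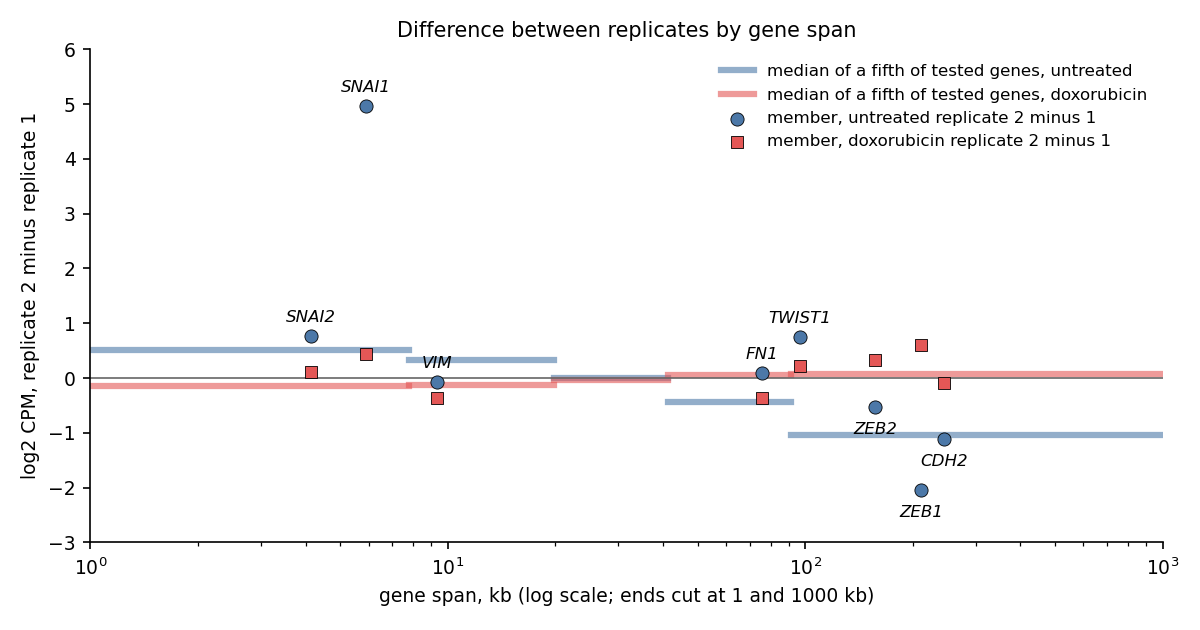
Log2 CPM of replicate 2 minus replicate 1 against gene span in kb (log axis from 1 to 1000 kb) for the 8 tested members, in untreated (circles) and doxorubicin (squares) cells. Horizontal lines are medians of 5 equal bins of the tested genes. The untreated medians fall from 0.51 to -1.05 with span and the doxorubicin medians stay within -0.14 and 0.08, while SNAI1 lies at 4.96.

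Genes with the most similar profiles were taken as those with the smallest Euclidean distance between centred log2 CPM values over the 4 libraries. For SNAI1 these were MAFA, TMPOP2 and HIST1H2AH, at distances of 0.212, 0.247 and 0.281. MAFA had a CPM of 1.32, 36.5, 1.08 and 1.56, high in untreated replicate 2 like SNAI1. VIM was nearest to WARS, ADAT1 and BX890604.2 at 0.0245, 0.0293 and 0.0455. The nearest to CDH1 were SRCIN1, FSCN1P1 and PRG2 at 0.0794, 0.0815 and 0.0827, and FSCN1P1 and PRG2 had a CPM of at most 2.18 in any library. With 4 libraries these distances describe the profiles alone.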

How the data were processed

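The authors deposited raw read counts per gene for each library, without normalization. Per the study's methods, reads were filtered with FastQC and Cutadapt, mapped with HISAT2 and counted with HTSeq, and the submitters' processing notes name hg38. The file headers name GENCODE release 31, and their layout is that of featureCounts. Tool versions and the strand setting are not given in the sources used here. Groups were taken from the sample titles, because the treatment field of the treated libraries names a miRNA experiment.

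CPM is the count divided by the library total, times 1000000. Genes were filtered with filterByExpr, scaled by TMM factors and tested with the quasi-likelihood test of edgeR (version 4.0.16, R 4.3.3), with group as the only term and Benjamini-Hochberg adjustment over all 17479 tested genes. A gene was called where its adjusted p was under 0.05 and its change was by 1 or more on the log2 scale, as in the study. Standard errors are the fold change divided by the square root of F, and the scripts were tested on simulated counts. The log2 CPM of distances and correlations used a prior count of 2. Alternatives were the likelihood ratio and exact tests of edgeR, DESeq2 (1.42.0), RLE scaling, unscaled library sizes, no filter, a filter at 1 CPM in 2 libraries, a block on replicate number, and leaving out each library. Same-numbered libraries shared only a number, so no pairing was used. The members and lists were chosen with earlier results of these data known. Named were all members, the genes of each list with an unadjusted p under 0.05 or, with more than 4 such genes or none, the 4 most abundant, the 3 nearest profiles of CDH1, SNAI1 and VIM, and CDKN1A and MDM2. Other genes of the lists were named after their values were seen. Positions and exon lengths are from GENCODE release 44 on GRCh38, matched by symbol for 36434 genes and 82.6% of those tested. Intervals cover counting error only, and reads without molecular identifiers are not independent molecules. Some genes of the lists are not reported here.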

Additional observations from a re-analysis of the deposited data

How the results depend on the processing

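The count of called genes was 0 with RLE factors, library size alone, no filter, a CPM filter and the older quasi-likelihood method of edgeR, an alternative chosen after seeing the data. It was 64 (56 higher, 8 lower) with the likelihood ratio test, 38 (35 and 3) with the exact test, and 89 (46 and 43) with DESeq2. Leaving out each library in turn gave 0 to 7173 called, 0 to 3745 higher and 0 to 3428 lower, with 871 without untreated replicate 2 and 7173 without untreated replicate 1. With the replicate number as a block, 20 genes were called (16 and 4), FN1 had a log2 fold change of 2.12 (adjusted p = 0.410, edgeR) and SNAI1 of -2.75 (adjusted p = 0.181). The deviations of same-numbered libraries had a correlation of 0.0219 over genes, so the numbers were not taken as pairs.

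Of 104 values of members under alternatives, 88 kept direction and side of the thresholds, 9 became called and 7 changed sign. No member was called in the main fit, so none could lose a call. The size of a change was not part of this count, and SNAI1 without untreated replicate 2 (-0.15) is among the 88. DESeq2 called SNAI1 (-4.26) and FN1 (2.08), and the likelihood ratio test called FN1 (2.13). TWIST1 changed sign with library size alone (0.12), no filter (0.050), the block (0.0063), without untreated replicate 2 (0.40) and without doxorubicin replicate 1 (0.07). VIM changed sign without doxorubicin replicate 1 (-0.021) and CDH2 without untreated replicate 2 (-0.26). Leaving out each library gave 1.93 to 2.30 for FN1, -5.18 to -0.15 for SNAI1, 0.37 to 1.19 for SNAI2, 0.77 to 2.78 for ZEB1, 0.75 to 1.23 for ZEB2, -0.39 to 0.40 for TWIST1, -0.021 to 0.35 for VIM and -0.26 to 0.79 for CDH2. The causes were not tested, apart from what each alternative leaves out.

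Library size alone shifted the median of all genes from 0.01 to 0.17. List medians became 0.24 (EMT regulators), 0.67 (mesenchymal), 0.10 (cadherins) and 0.0088 (epithelial) with it, the last 2 with a change of sign, and 0.22 and 0.65 for the first 2 with the block. Leaving out each library gave medians of -0.057 to 0.44 for EMT regulators, 0.11 to 1.01 for signalling, 0.27 to 0.89 for mesenchymal, -0.19 to 0.14 for epithelial (above 0 only without untreated replicate 1) and -0.22 to -0.019 for cadherin genes. The biological coefficient of variation over the 4 libraries was 0.486, and CDH1 and EPCAM had too few counts to be tested.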
